A study of Mus musculus with 6 samples.

Results

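The genes described here carry fibroblast growth factor (FGF) and hepatocyte growth factor (HGF) signalling. They comprise 10 members chosen by gene symbol: the ligands Fgf2, Fgf7 and Fgf18, the receptors Fgfr1, Fgfr2 and Fgfr3, the ligand Hgf with its receptor Met, and the feedback inhibitors Spry2 and Spry4. All 10 were found among 22966 gene symbols of the count table. RNA sequencing compared 3 libraries titled Cre with 3 titled flox, each from primary mouse hepatic stellate cells, the retinoid-storing liver pericytes that become collagen-producing myofibroblasts after injury. All 6 carried the genotype entry BucheHep and a carbon tetrachloride (CCl4) treatment entry, so no untreated library is present and the groups rest on the titles alone. Per the series text, the cells came from mice with a Buche knockout in hepatocytes, and the series title asks how butyrylcholinesterase acts on stellate cell activation. Information on the Cre driver, the dose and time of CCl4, the age of the mice, pooling and any cell sort was not given in the sources used here. Nothing in the labels ties a library to its own animal. The p-values below therefore reflect variation between these samples, part of which could be technical.

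FGFs are secreted proteins that bind receptor tyrosine kinases together with heparan sulphate chains on the cell surface. HGF is made by mesenchymal cells, classically stellate cells in the liver, and binds the receptor tyrosine kinase MET on neighbouring cells such as hepatocytes. Both receptor systems feed the RAS-MAPK cascade, and the Sprouty proteins are induced by that cascade and damp it.

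The libraries held 37273142 to 39377787 counts in Cre and 38452088 to 41006722 counts in flox. Bche, the gene the series names as deleted in hepatocytes, had 15, 8 and 2 counts in Cre 1, 2 and 3 and 17, 6 and 21 counts in flox 1, 2 and 3. Its log2 fold change of -0.88 ± 0.80 (SE, edgeR adjusted p = 0.467) did not pass, and a deletion in hepatocytes is not checked by RNA of stellate cells. The stellate markers Des, Lrat, Reln, Pdgfrb, Rgs5, Hand2, Lhx2, Dcn, Col1a1, Col1a2, Col3a1 and Acta2 were all detected, and their summed level was 2054 to 3392 CPM in Cre and 1128 to 2904 CPM in flox. CPM are counts scaled to library size with the TMM composition factors. Lrat, which makes the retinyl esters that stellate cells store, was low and uneven, with 41, 7 and 31 counts in Cre 1, 2 and 3 and 95, 84 and 5 counts in flox 1, 2 and 3. Of these 12 stellate markers, 2 were higher in Cre (Hand2 and Dcn) and 0 lower. Markers of macrophages and Kupffer cells were also abundant, with 11 of 12 lower in Cre and a summed level of 2297 to 2749 CPM in Cre and 7634 to 21572 CPM in flox. The lowest flox value is that of flox 3, which also lay between the other flox libraries and the Cre libraries on the first principal component. Portal fibroblast markers summed to 580 to 1028 CPM in Cre and 265 to 399 CPM in flox. Of 7 listed, 6 were tested, with 2 higher (Fbln2 and Slit2) and 0 lower. Mesothelial markers summed to 183 to 813 CPM in Cre and 139 to 228 CPM in flox, with 0 of 8 called. Endothelial markers summed to 1882 to 2999 CPM in Cre and 1175 to 3599 CPM in flox, with 1 of 8 lower (Clec4g). Hepatocyte markers summed to 55.4 to 317 CPM in Cre and 173 to 626 CPM in flox, cholangiocyte markers to 264 to 334 CPM in Cre and 125 to 1915 CPM in flox, smooth muscle markers to 57.1 to 68.0 CPM in Cre and 28.5 to 45.5 CPM in flox, and lymphocyte markers to 2.87 to 6.90 CPM in Cre and 4.05 to 14.9 CPM in flox, with 0 called in any of these lists. Tested markers numbered 7 for hepatocytes, 6 for cholangiocytes, 4 for smooth muscle and 7 for lymphocytes. At an edgeR adjusted p below 0.05, 6.35% of all 14795 genes tested were called higher and 8.94% lower. No marker of the cell type lists that was in the count table was at 0 in all 6 libraries. In bulk RNA, fewer cells of a type and less RNA per cell cannot be told apart, and the part of these marker differences in the results below was not tested.

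**Figure D1:**
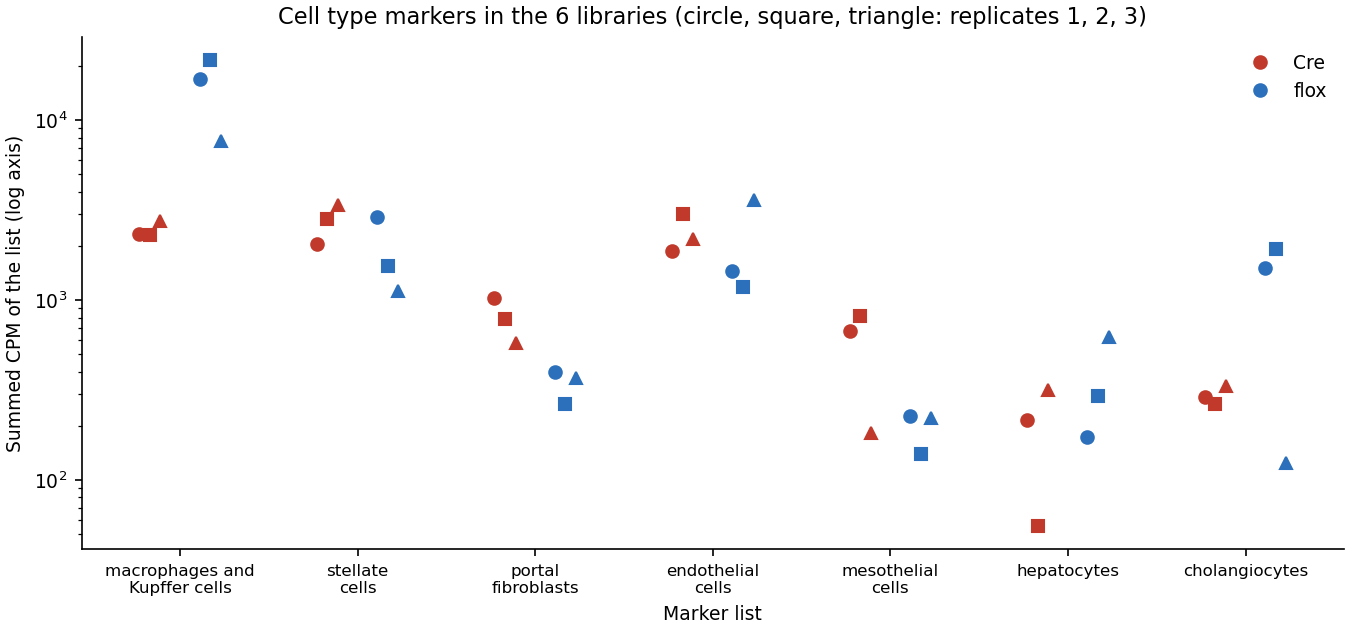
Summed TMM-normalised CPM of 7 cell type marker lists (log axis) in each library, Cre in red and flox in blue, with 1 symbol per replicate. Macrophage markers ran from 2297 to 2749 CPM in Cre and from 7634 to 21572 CPM in flox, while the stellate lists of the groups overlapped.

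Cre libraries had more Fgf2, Fgfr2, Met and Spry4 RNA than flox libraries. With edgeR's quasi-likelihood test at an adjusted p below 0.05, these 4 of the 10 members rose, 0 fell, 5 did not pass and 1, Fgf18, had too few counts to be tested. Over all 14795 genes tested, 6.35% were called higher and 8.94% lower. The members were chosen with earlier results of these data known, so the difference in shares is a description. For 5 tested members, Fgf2, Fgfr2, Met, Spry2 and Spry4, every Cre library lay above every flox library, as did 19.6% of all genes tested, and in 39.6% of all genes the groups did not overlap in one direction or the other. The median log2 fold change was 0.83 over the 9 tested members and 0.01 over all genes tested.

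**Figure D2:**
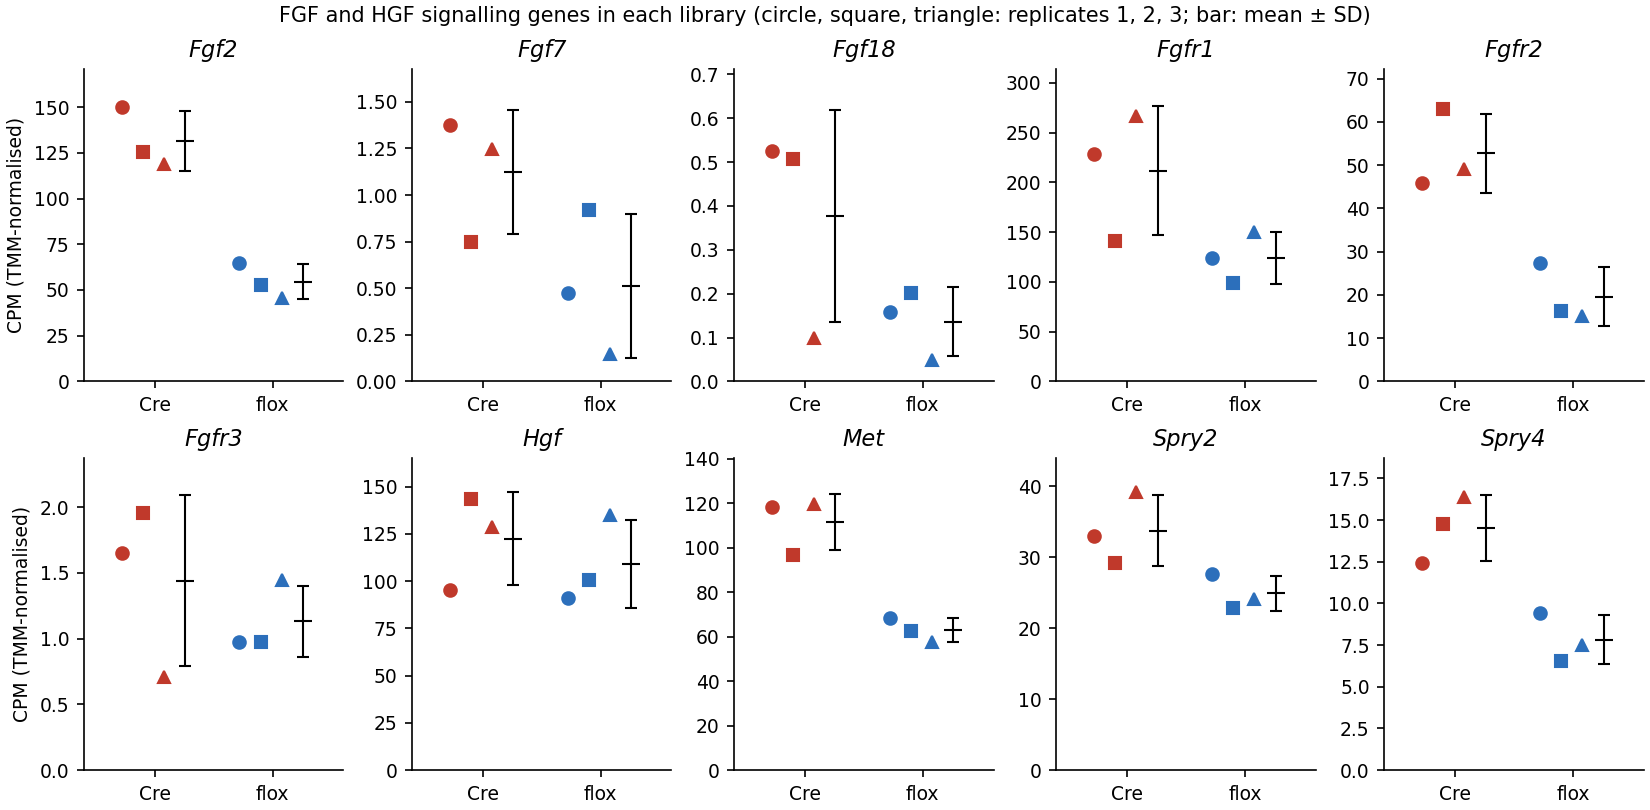
TMM-normalised CPM of the 10 genes in each library, Cre in red left of flox in blue, with 1 symbol per replicate and the mean ± SD as a black bar. The groups did not overlap for Fgf2, Fgfr2, Met, Spry2 and Spry4 and overlapped for the other 5.

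Among the ligands, Fgf2 encodes basic FGF, a growth factor without a classical secretion signal that stimulates fibroblast and endothelial growth. It had 149.95, 125.5 and 118.9 CPM in Cre 1, 2 and 3, against 64.8, 52.9 and 45.9 CPM in flox 1, 2 and 3. The lowest Cre library was well above the highest flox library, and the means were 131 ± 16.4 CPM in Cre and 54.5 ± 9.56 CPM in flox (SD, n = 3 each). The log2 fold change, Cre over flox, was 1.27 ± 0.16 (SE, edgeR adjusted p = 0.0237), a 2.41-fold difference. Fgf2 lies on chromosome 3 (37348477 to 37410106, plus strand, GRCm38.p6). Exons of Nudt6 on the opposite strand overlap 640 bases of its exons, and without a statement on strand, reads there cannot be told apart. Nudt6 itself had 79 to 161 counts per library in Cre and 124 to 128 in flox, far fewer than the 4860 to 5991 of Fgf2 in Cre and 1841 to 2467 in flox. The part of the overlap in the Fgf2 value was not tested.

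Fgf7, or keratinocyte growth factor, is a mesenchymal ligand that acts on the epithelial splice form of FGFR2. It was near the lower end of what was measured, with 55, 31 and 51 counts in Cre 1, 2 and 3 and 18, 32 and 6 counts in flox 1, 2 and 3. Its TMM-normalised level was 1.12 ± 0.33 CPM in Cre and 0.51 ± 0.39 CPM in flox (SD, n = 3 each), and flox 2 lay above Cre 2. The log2 fold change of 1.13 ± 0.68 (SE, edgeR adjusted p = 0.281) was within the spread between libraries, and omitting 1 library gave between 0.70 (without flox 3) and 1.87 (without flox 2). Fgf18, a ligand best known from bone and lung development, had 21, 21 and 4 counts in Cre 1, 2 and 3 and 6, 7 and 2 counts in flox 1, 2 and 3. Cre 1 and Cre 2 stood above all flox libraries and Cre 3 below flox 1 and flox 2, so the groups overlapped. It failed the filter of edgeR, which asks for about 10 counts in 3 libraries, and no fold change is given. At this depth 3 counts correspond to 0.072 to 0.086 CPM, a floor for counting error only.

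The receptors Fgfr1, Fgfr2 and Fgfr3 encode related tyrosine kinases, and gene counts do not separate the splice forms that set their ligand preference. Fgfr2 had 46.0, 63.1 and 49.0 CPM in Cre 1, 2 and 3, against 27.4, 16.3 and 15.1 CPM in flox 1, 2 and 3. All Cre libraries were above all flox libraries, with Cre 2 highest and flox 1 nearest to the Cre group. The log2 fold change of 1.43 ± 0.26 (SE, edgeR adjusted p = 0.0251), or 2.69-fold, passed. Fgfr1, the receptor typical of mesenchymal cells, had 228, 141 and 266 CPM in Cre 1, 2 and 3, against 124, 98.4 and 150.4 CPM in flox 1, 2 and 3. Cre 2 lay below flox 3, so the groups overlapped, and the log2 fold change of 0.77 ± 0.26 (SE, edgeR adjusted p = 0.0934) did not pass. It passed in DESeq2 (adjusted p = 0.0411) and in edgeR without flox 3 (adjusted p = 0.0465), and over its 15 alternatives the adjusted p ran from 0.0411 to 0.255. Fgfr3 had 66, 81 and 29 counts in Cre 1, 2 and 3 and 37, 34 and 58 in flox 1, 2 and 3. Its groups overlapped on both sides, at 1.44 ± 0.65 CPM in Cre and 1.13 ± 0.27 CPM in flox, with a log2 fold change of 0.35 ± 0.48 (SE, edgeR adjusted p = 0.644). Fgfr2 lies on chromosome 7 (130162451 to 130266808, minus strand, GRCm38.p6). Its exons share 314 bases with Ctbp2 on the same strand in the GENCODE M21 annotation, and reads there cannot be assigned without the counting rules. Ctbp2 had 2669, 2950 and 3433 counts in Cre 1, 2 and 3 and 2389, 2091 and 2516 counts in flox 1, 2 and 3, more than Fgfr2 in each library and with all Cre libraries above all flox libraries (0.26 ± 0.11, edgeR adjusted p = 0.160). Its part in the Fgfr2 value was not tested. Exons of Fgfr1 share 164 bases with the antisense gene Gm16159, which had 1 count in Cre 1 and 0 elsewhere.

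Within each library, Fgfr1 was the most abundant of the 3 FGF receptors per length. Its share of their summed FPKM (fragments normalised to gene length and library total) was 78.3%, 61.9% and 80.1% in Cre 1, 2 and 3 and 76.7%, 81.0% and 87.1% in flox 1, 2 and 3. Fgfr2 made up 20.9%, 36.7% and 19.5% in Cre 1, 2 and 3 and 22.4%, 17.8% and 11.6% in flox 1, 2 and 3. Cre 2 had the highest Fgfr2 share, and Cre 1 and Cre 3 lay within the flox range. The mean difference for Fgfr2, Cre minus flox, was 8.46 percentage points (exact permutation test over 6 libraries, two-sided, p = 0.3, where the smallest possible is 0.1), and without Cre 2 it was 2.94. Fgfr3 held 0.33% to 1.34% in Cre and 0.93% to 1.30% in flox. So the level of Fgfr2 rose, while its share among the 3 receptors was not distinguishable from the spread between libraries.

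Of the HGF pair, Met rose and Hgf did not pass, and the difference between them was not tested. Met, which encodes the HGF receptor, had 118, 97.0 and 119.7 CPM in Cre 1, 2 and 3, against 68.6, 62.4 and 57.7 CPM in flox 1, 2 and 3. The groups were well apart, with means of 112 ± 12.7 CPM in Cre and 62.9 ± 5.47 CPM in flox (SD, n = 3 each). The log2 fold change was 0.83 ± 0.13 (SE, edgeR adjusted p = 0.0237), a 1.77-fold difference. Hgf had 95.5, 143 and 129 CPM in Cre 1, 2 and 3, against 91.0, 100.7 and 135 CPM in flox 1, 2 and 3. The groups overlapped throughout, with flox 3 between Cre 2 and Cre 3 and Cre 1 between flox 1 and flox 2. Its log2 fold change of 0.17 ± 0.21 (SE, edgeR adjusted p = 0.592) did not pass under any of 15 alternatives. The FPKM ratio of Hgf to Met was 0.78, 1.42 and 1.03 in Cre 1, 2 and 3 and 1.28, 1.55 and 2.25 in flox 1, 2 and 3, with Cre 2 above flox 1. Met lies on chromosome 6 (17463349 to 17573980, plus strand) and Hgf on chromosome 5 (16553495 to 16619439, plus strand), both in GRCm38.p6.

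The Sprouty genes encode intracellular inhibitors of receptor tyrosine kinase signalling. Spry4 had 12.4, 14.7 and 16.4 CPM in Cre 1, 2 and 3, against 9.43, 6.52 and 7.54 CPM in flox 1, 2 and 3. The lowest Cre library was above the highest flox library, and the log2 fold change was 0.89 ± 0.20 (SE, edgeR adjusted p = 0.0366), a 1.85-fold difference. On the log2(FPKM + 1) scale, which understates low genes, it was 0.53 (limma-trend adjusted p = 0.0343). Spry2 had 32.99, 29.1 and 39.1 CPM in Cre 1, 2 and 3, against 27.6, 22.9 and 24.1 CPM in flox 1, 2 and 3. Cre 2 stood just above flox 1, so the groups did not overlap, and the log2 fold change of 0.44 ± 0.15 (SE, edgeR adjusted p = 0.0924) did not pass. It passed with library totals in place of TMM factors (0.60, edgeR adjusted p = 0.0435). Library totals raise the median log2 fold change of all genes by 0.16, and relative to that shift the value is close to the TMM one.

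RefSeq (GRCm38.p6) windows of 250 bases before an annotated transcript start were available for 8 of the 10 members, all but Fgfr1 and Spry4. Such a start can lie inside the gene: the Met window falls within the gene span given above, that of Fgf2 spans its first base, and both overlap annotated exons. Windows clear of annotated exons are shown for 3 members that differ in result. These are Fgfr2, which rose, and Hgf and Spry2, which did not pass. The Fgfr2 window lies outside the RefSeq span of the gene but inside its longer GENCODE M21 span, 130162451 to 133123350. Capitals mark CG dinucleotides, the sites of DNA methylation. The Fgfr2 window is chr7:130266809-130267058 on the minus strand, the Hgf window chr5:16553245-16553494 on the plus strand and the Spry2 window chr14:105896820-105897069 on the minus strand, each given 5′ to 3′ along the gene.
Fgfr2: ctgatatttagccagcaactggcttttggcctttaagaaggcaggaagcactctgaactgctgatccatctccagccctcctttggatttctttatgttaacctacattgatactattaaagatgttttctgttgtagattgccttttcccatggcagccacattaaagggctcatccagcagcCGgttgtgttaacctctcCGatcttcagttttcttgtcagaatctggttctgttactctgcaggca
Hgf: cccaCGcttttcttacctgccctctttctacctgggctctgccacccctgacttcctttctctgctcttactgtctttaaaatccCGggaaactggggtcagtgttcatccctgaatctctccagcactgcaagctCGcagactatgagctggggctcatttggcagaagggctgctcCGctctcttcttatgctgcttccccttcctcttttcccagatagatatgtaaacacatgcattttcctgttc
Spry2: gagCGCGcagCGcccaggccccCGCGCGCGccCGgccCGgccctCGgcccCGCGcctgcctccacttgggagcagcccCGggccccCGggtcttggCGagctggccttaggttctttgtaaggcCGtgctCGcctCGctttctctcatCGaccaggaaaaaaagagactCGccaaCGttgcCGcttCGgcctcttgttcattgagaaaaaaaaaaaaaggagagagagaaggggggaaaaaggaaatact

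The Spry2 window held 23 CG dinucleotides at 62.4% G and C, the printed Hgf window 4 at 50.8% and the Fgfr2 window 2 at 44.0%. Another Hgf window, chr5:16553651-16553900, overlaps exons and held 5 at 51.2%. All 32851 such windows had a median of 6 CG dinucleotides and 52.4% G and C. Of the other called members, the Fgf2 window held 20 and the Met window 24, both in windows that overlap exons. Spry4, also called, had no window. The GC box letters GGGCGG, searched on both strands, were found in the windows of Fgf2, Met, Fgfr3 and Fgf18 and in 32.7% of all windows. The AP-1 letters TGANTCA, on both strands, were found in the Met window and in 6.7% of all windows. The TEAD letters GGAATG (12.6% of all windows), the ETS letters CCGGAA (12.0%) and the CRE letters TGACGTCA (1.5%), also searched on both strands, were found in 0 member windows. These are matches of letters in short windows and are not binding sites measured here.

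Ordered per length, the members ran from abundant to scarce, with Spry4 in between. In Cre libraries the mean FPKM was 31.6 ± 9.39 for Fgfr1, 19.1 ± 2.68 for Fgf2, 17.98 ± 3.47 for Hgf, 17.1 ± 1.92 for Met, 10.4 ± 1.81 for Fgfr2 and 8.02 ± 1.11 for Spry2 (SD, n = 3). The ranges of Fgf2, Hgf and Met overlapped there, since Fgf2 exceeded Hgf in 1 of 3 libraries and Hgf exceeded Met in 2 of 3. Those of Fgfr1 and Fgf2 also overlapped, although Fgfr1 exceeded Fgf2 in 3 of 3 libraries. In Cre 2, Hgf stood at 21.11 FPKM and Fgfr1 at 21.05 FPKM. In flox libraries the order was Fgfr1 at 16.8 ± 4.44, Hgf at 14.5 ± 3.92, Met at 8.61 ± 0.55, Fgf2 at 7.09 ± 1.05, Spry2 at 5.30 ± 0.58 and Fgfr2 at 3.46 ± 1.13 FPKM. The ranges of Fgfr1 and Hgf overlapped there, as did those of Met and Fgf2 and those of Spry2 and Fgfr2. Spry4 followed at 1.48 ± 0.18 FPKM in Cre and 0.72 ± 0.14 FPKM in flox. Fgf7, Fgfr3 and Fgf18 stayed below 1 FPKM in every library, and the range of Fgf7 overlapped those of the other two in both groups.

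**Figure D3:**
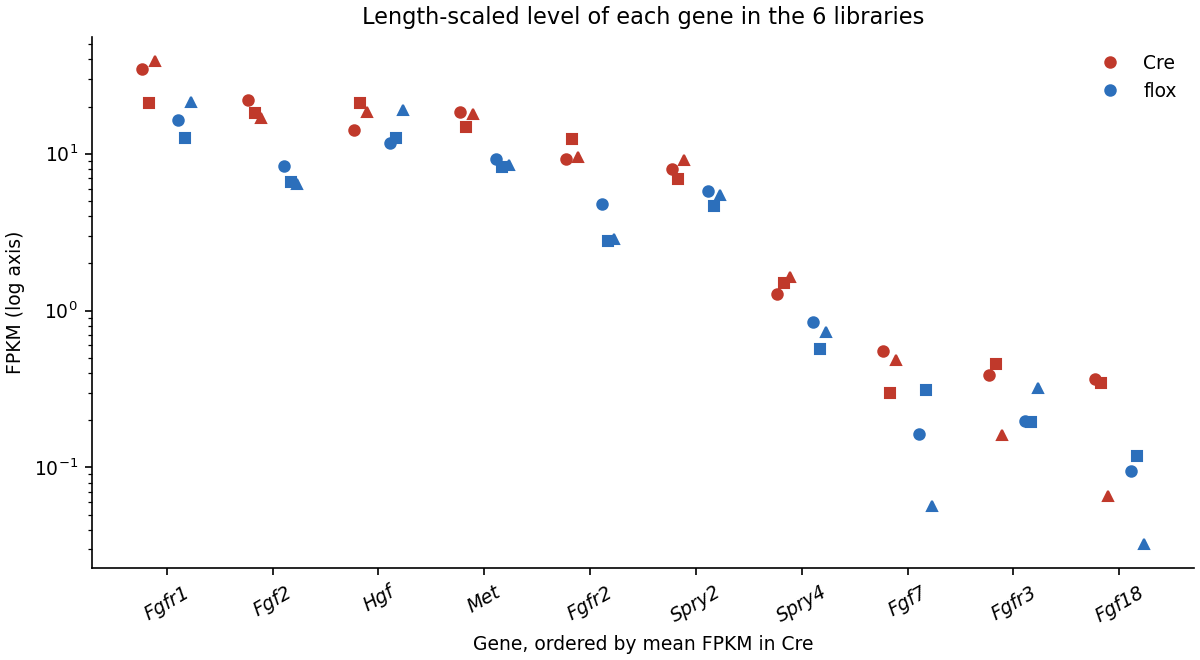
FPKM of the 10 genes (log axis) in each library, ordered by the Cre mean, with Cre in red left of flox in blue and 1 symbol per replicate. Fgfr1, Fgf2, Hgf, Met, Fgfr2 and Spry2 lie above 2 FPKM in every library, and Fgf7, Fgfr3 and Fgf18 below 1 FPKM.

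The wider FGF ligand family was mostly scarce or not detected. Of 22 ligands listed, 16 were in the count table and 6 (Fgf3, Fgf4, Fgf6, Fgf14, Fgf15 and Fgf22) were not analysed here. Of the 16, 6 were tested, 1 rose (Fgf2) and 0 fell, against 6.35% and 8.94% of all genes tested. Fgf8 had 0 counts in all libraries. The ligands of next lowest p were Fgf9 and Fgf23. Fgf9, known as a mesothelial and epithelial ligand in mouse lung, had 24, 49 and 15 counts in Cre 1, 2 and 3 and 6, 0 and 2 counts in flox 1, 2 and 3. Only its Cre libraries reached about 10 counts, so it entered the test through the group where it was high. All Cre libraries were above all flox libraries, which is a description given that entry. Its log2 fold change of 3.30 ± 0.99 (SE, edgeR adjusted p = 0.0675) did not pass. It ranged over its alternatives from 0.17 on log2(FPKM + 1) to 4.62 without flox 1. Mesothelial markers were higher in Cre 1 and Cre 2 than in flox, but the level in Cre 3 was within the flox range, and their part in the Fgf9 value was not tested.

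Fgf23, a hormone that lowers blood phosphate and is mainly made in bone, had 252, 537 and 344 counts in Cre 1, 2 and 3 and 10, 32 and 161 counts in flox 1, 2 and 3. Its groups did not overlap, flox 3 stood well above the other flox libraries, and the log2 fold change was 2.41 ± 0.88 (SE, edgeR adjusted p = 0.107). It passed in DESeq2 (adjusted p = 0.0190), in limma-trend on FPKM (adjusted p = 0.0414 and 0.04998 with pseudocounts of 1 and 0.1) and in edgeR without flox 3 (3.97, adjusted p = 0.00639). Its adjusted p over all alternatives ran from 0.00639 to 0.279.

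Among 9 receptors and co-receptors, 5 were tested, 2 rose and 0 fell, against 6.35% and 8.94% of all genes tested. The riser beside Fgfr2 was Fgfrl1, a receptor-like protein that binds FGFs but lacks the kinase domain, at 16.3 ± 2.08 CPM in Cre and 7.95 ± 1.41 CPM in flox (SD, n = 3 each). Its log2 fold change was 1.04 ± 0.20 (SE, edgeR adjusted p = 0.0260). The co-receptors of hormone-like FGFs were almost silent, with 0 counts of Kl in Cre and at most 1 in flox, and at most 8 counts of Klb in any library. Fgfr4, the main FGF receptor of hepatocytes, had 13, 10 and 8 counts in Cre 1, 2 and 3 and 6, 5 and 6 counts in flox 1, 2 and 3, too few for the test.

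The HGF list also holds the HGF-like ligand Mst1, its receptor Mst1r and the proteases and inhibitors that control HGF cleavage. Of its 11 tested genes, 1 rose (Met) and 1 fell (Plau), against 6.35% and 8.94% of all genes tested. Plau encodes the urokinase plasminogen activator, a protease that can cleave pro-HGF. It had 56.2, 48.2 and 50.2 CPM in Cre 1, 2 and 3, against 193, 178 and 87.6 CPM in flox 1, 2 and 3. Its log2 fold change was -1.57 ± 0.29 (SE, edgeR adjusted p = 0.0255). Flox 3 was the lowest flox library for Plau and for the macrophage markers, and the part of the macrophage difference in the Plau value was not tested. Without Cre 3 the Plau call ended (adjusted p = 0.0554). Mst1r was at 28.2 ± 10.8 CPM in Cre and 12.1 ± 2.86 CPM in flox, with Cre 3 only just above flox 3, and did not pass (1.22 ± 0.33, edgeR adjusted p = 0.0535). It passed in 5 of 15 alternatives, with adjusted p from 0.00512 in DESeq2 to 0.175.

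**Figure D4:**
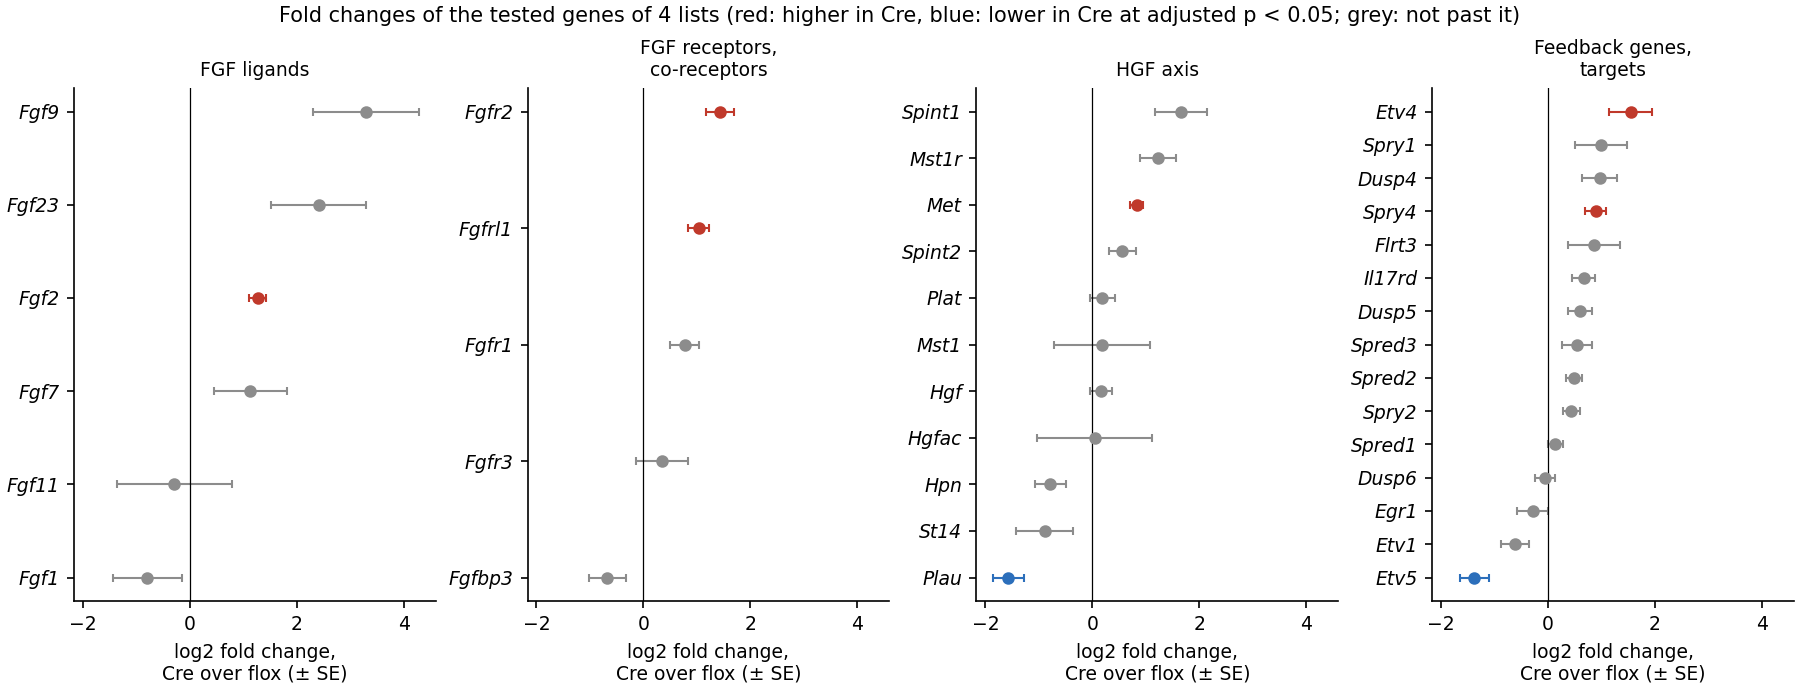
Log2 fold change, Cre over flox, with its standard error, of the tested genes of 4 lists in edgeR. Red genes rose and blue genes fell at an adjusted p below 0.05, and grey genes did not pass; Plau and Etv5 are the genes that fell.

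Of 16 feedback inhibitors and transcriptional targets of the cascade, 15 were tested, and Spry3 was not analysed here. Of the 15, 2 rose (Etv4 and Spry4) and 1 fell (Etv5), against 6.35% and 8.94% of all genes tested. The list includes the members Spry2 and Spry4, so it is not separate from the member results above. The ETS transcription factors Etv4 and Etv5, both commonly used as FGF target genes, went opposite ways. Etv4 had 8.66, 7.63 and 3.82 CPM in Cre 1, 2 and 3, against 1.86, 1.84 and 3.16 CPM in flox 1, 2 and 3, with a log2 fold change of 1.55 ± 0.40 (SE, edgeR adjusted p = 0.0478). It did not pass in limma-voom (adjusted p = 0.0776) or on log2(FPKM + 1) (0.77, adjusted p = 0.0528). Etv5 had 18.6, 18.4 and 14.7 CPM in Cre 1, 2 and 3, against 59.1, 45.7 and 29.3 CPM in flox 1, 2 and 3, with a log2 fold change of -1.37 ± 0.26 (SE, edgeR adjusted p = 0.0264, and 0.0567 without Cre 3). The ERK phosphatase gene Dusp6, another target, was at 202 ± 43.6 CPM in Cre and 210 ± 24.3 CPM in flox, with a difference of -0.06 ± 0.18 on the log2 scale (SE, edgeR adjusted p = 0.856). The median log2 fold change of the list was 0.55, against 0.01 for all genes tested, with 6 genes wholly higher and 1 wholly lower in Cre libraries, against 19.6% and 20.0% of all genes tested. The 6 were Spry4 and Etv4, which passed, and Spry2, Dusp4, Spred2 and Il17rd, which did not (edgeR adjusted p of 0.0712 to 0.0942). Etv5 was the 1 wholly lower.

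Of 23 adaptors and RAS-MAPK core genes, 1 rose and 1 fell, against 6.35% and 8.94% of all genes tested. Their median log2 fold change was 0.04. Every Cre library lay above every flox library for 5 of them and below for 7, against 19.6% and 20.0% of all genes tested. Grb2, the adaptor that links receptors to RAS activation, fell to 101.2 ± 9.84 CPM in Cre, against 250 ± 74.5 CPM in flox (-1.31 ± 0.24, edgeR adjusted p = 0.0250), and flox 3 was again the flox library nearest to Cre. Map2k1, which encodes the kinase MEK1, rose to 249.6 ± 9.87 CPM in Cre, against 169 ± 26.6 CPM in flox (0.56 ± 0.13, edgeR adjusted p = 0.0399, and 0.0910 without Cre 3). Braf was at -0.60 ± 0.17 (edgeR adjusted p = 0.0565). It passed in DESeq2 (adjusted p = 0.0132) and without flox 3 (adjusted p = 0.00400), and its exons overlap those of Ndufb2 on the opposite strand.

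Heparan sulphate genes, whose products FGFs and HGF bind, had 4 of 18 members higher and 2 lower, against 6.35% and 8.94% of all genes tested, with a median log2 fold change of 0.44. The groups did not overlap for 8 members higher and 3 lower in Cre, against 19.6% and 20.0% of all genes tested. The carriers Sdc4 (1.13 ± 0.16), Gpc4 (1.27 ± 0.23) and Sdc2 (1.04 ± 0.24) and the chain-building enzyme Ext1 (0.79 ± 0.12) rose, with edgeR adjusted p of 0.0237 to 0.0360. Sdc4 stood at 293 ± 44.9 CPM in Cre and 134 ± 16.9 CPM in flox (SD, n = 3 each). The carrier Sdc3 (-1.29 ± 0.29, edgeR adjusted p = 0.0343) and the sulphotransferase Hs6st1 (-0.93 ± 0.16, edgeR adjusted p = 0.0241) fell. Sdc3 stood at 736 ± 184 CPM in Cre and 1805 ± 554 CPM in flox. Antisense genes overlap exons of Sdc3 and Hs6st1.

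The genes whose log2 profile over the 6 libraries lay nearest to each of the 3 members of lowest p were as follows. Nearest to Fgf2 were Suv39h2, Aff3 and Zfhx4, at a root mean square difference of 0.13 to 0.14 in log2 CPM after centring. Nearest to Met were Tmem254, Aldh18a1 and Ext1, at 0.0669 to 0.0849. Nearest to Fgfr2 were Gabra3, Tcaf2 and Plek2, at 0.16 to 0.17. With 6 libraries and 14795 genes, close profiles are a description only, and exons of Suv39h2 overlap those of Dclre1c.

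For the called members, the calls depended on single libraries. In edgeR, 0 genes of the whole table passed when Cre 1, Cre 2, flox 1 or flox 2 was omitted, which ended every call above. In these fits 3593, 3978, 3720 and 3562 genes had an unadjusted p below 0.05, and omissions were run in edgeR alone. In those 4 fits Fgf2, Fgfr2, Met and Spry4 kept an unadjusted p below 0.05 and had adjusted p of 0.0644 to 0.109. Without flox 3, 5 members were called, the 4 above and Fgfr1, and without Cre 3, 3 were, Fgf2, Fgfr2 and Met, while Spry4 was not (adjusted p = 0.0736). The log2 fold change ran from 1.16 to 1.42 for Fgf2, from 1.27 to 1.76 for Fgfr2, from 0.77 to 0.95 for Met and from 0.79 to 1.06 for Spry4 with 1 library left out. Every tested member had a positive fold change under each alternative run.

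**Figure D5:**
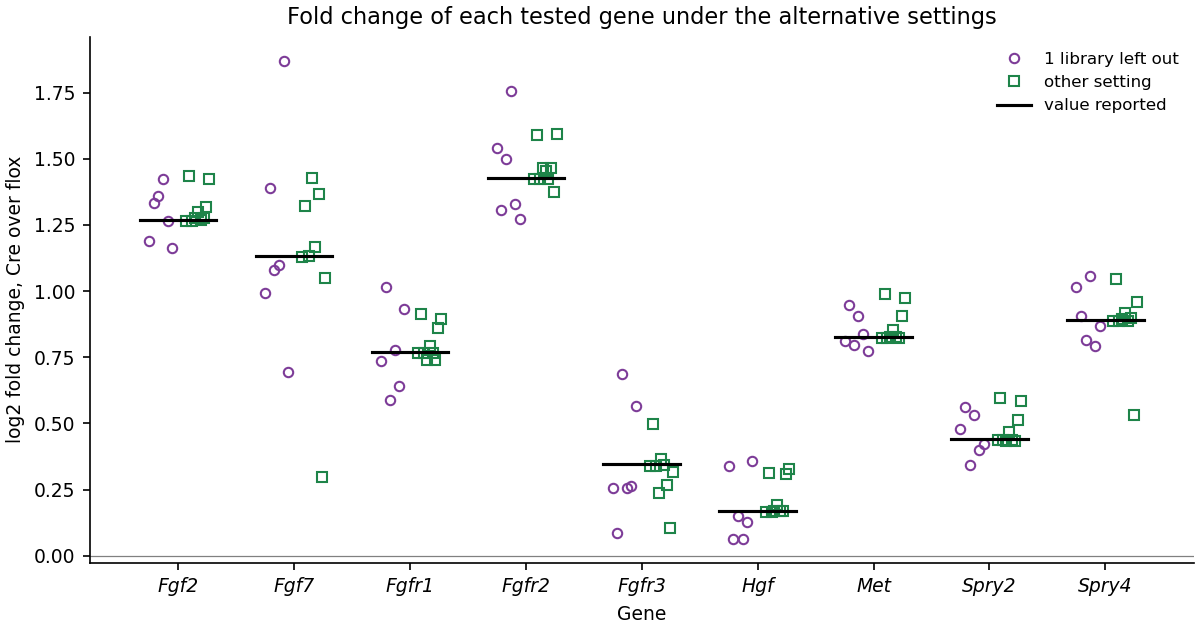
Log2 fold change, Cre over flox, of the 9 tested genes as reported (black line), with 1 library left out (purple circles) and under the other settings (green squares). Fgf2, Fgfr2, Met and Spry4 stay above 0.5 throughout, and Fgf7 spreads most, down to 0.30 on log2(FPKM + 1).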

How the data were processed

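Libraries were prepared with a SMARTER mRNA kit, per the labels' protocols. The authors deposited raw counts per gene symbol and FPKM, with 1 column per library and 0 left unused. Within a gene, the deposited FPKM were the count over the library total times a constant (0 of 11560 genes departed by over 1e-06). GRCm38, mm10 and hg38 appear, without a role, in the submitters' processing notes. Information on aligner, counter and strand was not given in the sources used here.

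filterByExpr (count 10, total 15) kept 14795 genes and removed 8171. TMM-scaled counts (factors 0.905 to 1.07) were compared with edgeR 4.0.16 (R 4.3.3; quasi-likelihood F-test, two-sided, no covariate) and adjusted by Benjamini-Hochberg over these genes. SE is |log2 fold change| divided by √F. Every pair of libraries in a group differed beyond sampling noise (chi-square per gene at least 33.5). Positions and promoters are from RefSeq, exon overlaps from GENCODE M21. Methods were also run on simulated counts with planted changes, and the outcome is not given here.

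The 10 members and all lists were chosen with earlier results of these data known. Named genes are the members, the genes of each list past the threshold (up to 6, or the lowest p up to 3), and, for the 3 members of lowest p, the 3 nearest profiles. Kl, Klb, Fgfr4, Fgf8, Dusp4, Dusp6, Spred2 and Il17rd were named after their values were seen. Alternatives were RLE factors, library totals, DESeq2 1.42.0, limma-voom (limma 3.58.1), other filters, a replicate block, limma-trend on FPKM (pseudocounts 1 and 0.1), each library left out and a threshold of 0.10.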

Additional observations from a re-analysis of the deposited data

How the results depend on the processing

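Alternatives were run for the members and for the list genes named by rule, and none of these changed sign. They were not run for Dusp4, Dusp6, Spred2, Il17rd, Bche, the overlapping genes, the nearest profiles or single markers. Members called higher numbered 4 as reported and 0 to 5 with 1 library left out, and members called lower 0 throughout. Genes called higher and lower over the whole table numbered 940 and 1323 as reported, 1976 and 2358 in DESeq2, 578 and 826 in limma-voom, 1826 and 2160 at an adjusted p below 0.10, and, with 1 library left out, 0 (without Cre 1, Cre 2, flox 1 or flox 2) to 2447 and 2882 (without flox 3). Without Cre 3, 598 were lower. Library totals gave 1415 higher and turned the share called higher to 57.0%, from 41.5%, and limma-trend on FPKM gave 58.4% and 57.7% with pseudocounts of 1 and 0.1. The cause of these differences was not tested. A replicate block left 0 members and 0 genes called in either direction, with 4296 genes at an unadjusted p below 0.05 and member values of 1.28 (Fgf2), 1.47 (Fgfr2), 0.82 (Met) and 0.90 (Spry4). Libraries of the same number did not deviate together (correlations of -0.03, -0.10 and -0.06), and no library correlated best with its own number. Deviations were taken from the mean of each group of 3, too few to settle whether libraries of equal number were processed together. Receptor share differences, Cre minus flox, ran from -11.5 to -2.39 points for Fgfr1, 2.94 to 11.5 for Fgfr2 and -0.55 to -0.05 for Fgfr3 with 1 library left out, and by counts were -7.04, 7.24 and -0.19. Depth limits Fgf7, Fgfr3, Fgf9 and Fgf18, which had under 100 counts in each library.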
